A study of Oryza sativa Japonica Group with 20 samples.

Results

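The CUT&Tag peaks around the centromeres of rice were chosen by position alone: a peak was taken when its midpoint lay within 2.5 Mb of 1 given position on each of the 12 chromosomes. These positions were 16.7, 13.6, 19.4, 9.7, 12.4, 15.3, 12.1, 12.9, 2.8, 8.2, 12 and 11.9 Mb on chromosomes 1 to 12 in turn. Across 14 peak lists these windows held 21205 of 281857 peaks, and 260463 peaks lay on the rest of the 12 chromosomes. The windows span 60 Mb, or 16.1% of the length used here. CUT&Tag finds the DNA near a protein or histone mark by tethering a transposase to an antibody, and a peak is a stretch where the cut fragments exceed a modelled background.

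A centromere is the part of a chromosome on which the kinetochore forms, and in rice it consists of satellite repeats and retrotransposons around a core of centromeric histone, flanked by pericentromeric chromatin with few genes. H3K27me3 is a histone mark of silenced genes, set by the Polycomb complex PRC2, and EMF2b is a PRC2 subunit of rice. H3K4me3 marks the starts of active genes. A region with both marks is called bivalent. PLT5 belongs to the PLETHORA transcription factors, which in Arabidopsis maintain the stem cells of the root.

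The libraries came from nuclei of root tips, about 0.8 cm long, of 7 day old seedlings of the Japonica rice ZH11 (WT) and of plt345, plants in which PLT3, PLT4 and PLT5 are all mutated. H3K27me3, H3K4me3 and EMF2b were each profiled in 2 WT and 2 plt345 libraries, and PLT5 in 2 WT libraries. The remaining 6 of 20 samples, 4 IgG controls and 2 PLT5 libraries of plt345, are not analysed here. The labels do not say whether replicates came from separate plants, how many mutant lines were used or which alleles they carry, so p-values measure only the spread between these libraries. The lists name no genes, so neither the root tip origin nor the loss of the PLT genes was checked.

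With 2 libraries a group no test of window against rest or of genotype could pass 0.05: the smallest p of the exact sign-flip permutation test over 4 libraries is 0.125 and over 2 libraries 0.5, and that of the exact permutation test of 2 against 2 libraries is 0.333. All tests were two-sided. Lists held between 20841 and 24185 peaks for H3K27me3 and between 25165 and 27182 for H3K4me3. The read depth behind the lists is unknown, so a stretch with no peak was not distinguished from a stretch in which reads could not be placed.

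The given positions were first compared with the peaks themselves. The longest stretch of a chromosome without a peak in any of the 14 lists had its midpoint in the window on 7 of 12 chromosomes, and on chromosomes 7, 9 and 10 it contained the given position. The stretch on chromosome 7 ran for 410.5 kb, from 11914176 to 12324700, and the one on chromosome 10 for 212.5 kb. On chromosomes 4, 5, 6, 8 and 12 the longest stretch lay outside the window, and the longest of all, 561.8 kb on chromosome 4, lay 5.41 Mb from the given position. For H3K27me3 alone the longest stretch without a peak lay in the window on 9 of 12 chromosomes, for H3K4me3 on 3, for EMF2b on 6 and for PLT5 on 7. The windows are therefore described as windows around given positions, whose place relative to the functional centromere was not tested.

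Peaks of all 4 antibodies were sparser around the centromeres than on the rest of the chromosomes, in every library and on every chromosome. For H3K27me3 the windows held 29.6 and 29.1 peaks per Mb in WT and 27.03 and 27.27 in plt345, against 70.8 and 71.7 in WT and 61.4 and 61.7 in plt345 on the rest. No window value came near a value of the rest. The ratio of window to rest was 0.427 ± 0.018 (SD, n = 4), with an exact sign-flip p = 0.125.

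H3K4me3 peaks were the least sparse of the 4. Its windows held 35.3 and 34.3 peaks per Mb in WT and 38.2 and 37.8 in plt345, while the rest held 75.5 and 73.8 in WT and 79.5 and 78.5 in plt345. Its ratio was 0.474 ± 0.0089 (SD, n = 4, exact sign-flip p = 0.125).

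EMF2b and PLT5 peaks were sparser still. EMF2b had 17.8 and 16.5 window peaks per Mb in WT and 17.5 and 20.9 in plt345, against 46.0 and 44.3 in WT and 45.7 and 53.1 in plt345 on the rest, a ratio of 0.384 ± 0.0092 (SD, n = 4, exact sign-flip p = 0.125). The second plt345 library of EMF2b stood above the other 3 in both zones. PLT5 had 11.7 and 10.4 window peaks per Mb against 38.0 and 32.6 on the rest, a ratio of 0.313 ± 0.0085 (SD, n = 2, exact sign-flip p = 0.5). The ratio was below 1 on 12 of 12 chromosomes in every library of each antibody. Set against only the neighbouring 2.5 to 5 Mb, the log2 ratios were smaller but kept their sign in every library: -0.94 for H3K27me3, -0.31 for H3K4me3, -0.51 for EMF2b and -0.51 for PLT5.

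**Figure D1:**
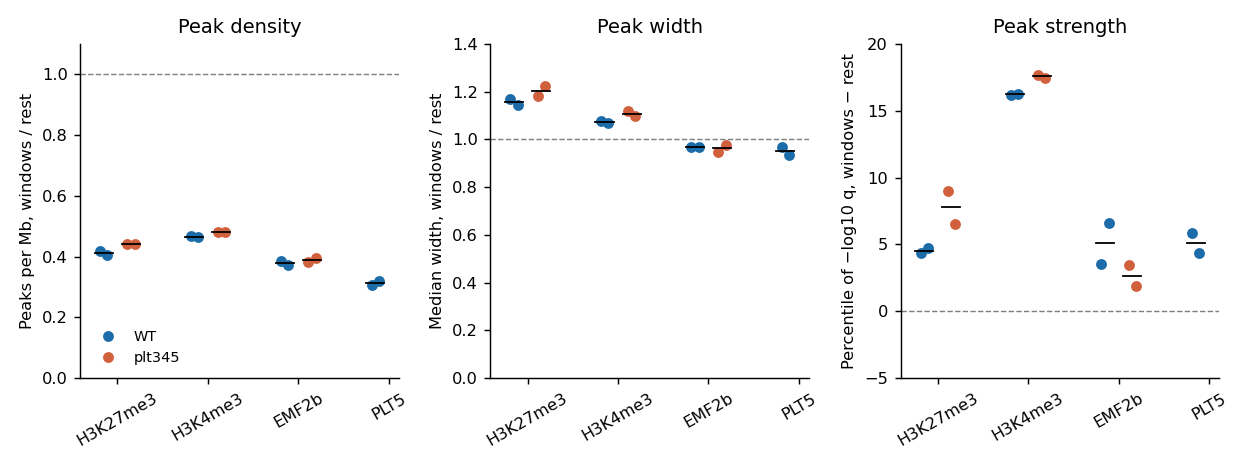
Window against rest for peak density (ratio), median peak width (ratio) and median strength rank (difference in percentile points), by antibody. Each point is a library, black bars are group means and dashed lines mark no difference; all 14 density ratios lie below 1, and the strength differences of all 14 libraries lie above 0.

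The order of the antibodies was compared library by library, a comparison chosen after the values were seen. Against the whole rest, the log2 ratio of H3K4me3 was higher than that of H3K27me3 by 0.15. EMF2b was lower than H3K27me3 by the same 0.15. The libraries of each of the 6 antibody pairs did not overlap. Over 12 such comparisons, 6 of the windows and 6 of the innermost bins below, the exact permutation p of 4 against 4 libraries was 0.0286, and 0.0571 after Benjamini-Hochberg adjustment. H3K27me3 peaks were called with a broad cutoff and the others with a narrow one, and the part of the calling in these differences was not tested.

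Peaks were sparsest next to the given positions, and the antibodies differed more there. Within 0.5 Mb there were 92 and 89 H3K27me3 peaks in the WT libraries and 83 and 85 in plt345, over all 12 chromosomes together. The same bins held 317 and 313 H3K4me3 peaks in WT and 333 and 328 in plt345. EMF2b had between 100 and 132 peaks there and PLT5 had 67 and 66.

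As a ratio to the density of the rest, H3K27me3 in these innermost bins was at 0.110 ± 0.0050 (SD, n = 4) and H3K4me3 at 0.350 ± 0.0023 (SD, n = 4). EMF2b was at 0.201 ± 0.011 (SD, n = 4) and PLT5 at 0.158 ± 0.015 (SD, n = 2). H3K27me3 lay lowest of the 4 here, while over the whole windows EMF2b and PLT5 lay below it. The difference between H3K27me3 and H3K4me3 was -1.67 on the log2 scale (exact permutation p = 0.0286, adjusted p = 0.0571). In WT there were 0.290 and 0.284 H3K27me3 peaks for each H3K4me3 peak within 0.5 Mb, against 0.840 and 0.848 over the whole windows and 0.938 and 0.971 on the rest.

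Further out, density was higher. The next bin, from 0.5 to 1 Mb, held 25 ± 0.94 H3K27me3 peaks per Mb in WT (SD, n = 2), after 7.54 ± 0.18 in the innermost one. For H3K4me3 the step between these bins was smaller, from 26.2 ± 0.24 to 34.4 ± 0.65 (SD, n = 2). H3K27me3 reached the level of the rest in every library by 7 Mb from the given position, and the other 3 antibodies by 9 Mb. The window edge was no boundary in this profile: just inside it, from 2 to 2.5 Mb, the WT libraries had 468 and 459 H3K27me3 peaks, and just outside, from 2.5 to 3 Mb, 540 and 528.

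**Figure D2:**
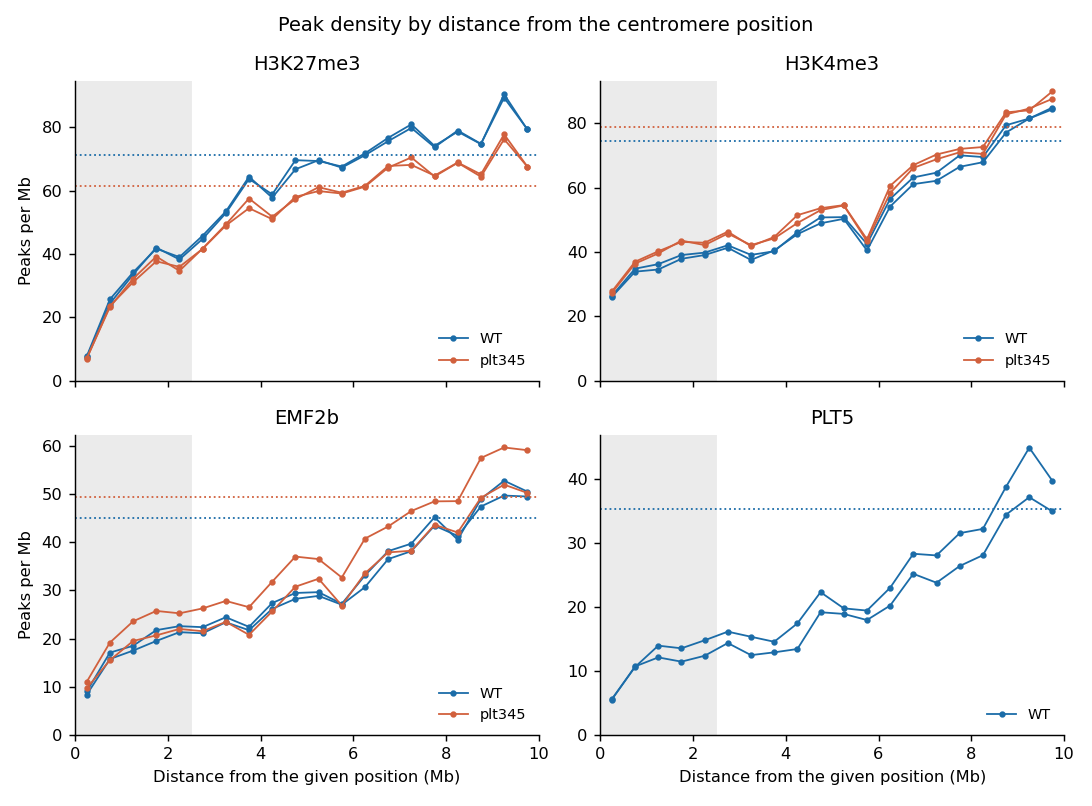
Peaks per Mb (y axis) in bins of 0.5 Mb by distance from the given position (x axis, Mb), with 1 line per library, the window shaded and the mean of the rest dotted. The H3K27me3 curves start at 6.92 to 7.67 peaks per Mb, whereas the H3K4me3 curves start at 26.1 to 27.8.

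Chromosomes differed in how many peaks their centromere windows held. The window of chromosome 4 was the poorest for all 4 antibodies in WT, with 15.8 ± 0.57 H3K27me3, 22.7 ± 0.42 H3K4me3, 11.8 ± 0.28 EMF2b and 6.9 ± 1.6 PLT5 peaks per Mb (SD, n = 2). For PLT5 this rested on 1 library, as chromosomes 5 and 10 had fewer peaks in the first one. The window of chromosome 11 was the richest in H3K27me3, at 45.7 ± 0.14 per Mb, yet was second poorest in H3K4me3, at 25.8 ± 0.85 (SD, n = 2). The rest of chromosome 11 also had the second highest H3K27me3 density, 77.4 per Mb, and the lowest of H3K4me3, 54.3 per Mb. The window of chromosome 2 was the richest in H3K4me3 and EMF2b in WT, at 48.6 ± 3.4 and 26.0 ± 0.28 per Mb (SD, n = 2). For H3K4me3 this rested on 1 library, as the second one had 232 window peaks on chromosome 3 and 231 on chromosome 2. In plt345 chromosome 3 was the richer in H3K4me3, at 52.9 against 52.4 per Mb.

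The 2 marks also parted within 0.5 Mb of single positions. On chromosome 2 a mean of 55.5 H3K4me3 peaks stood there beside 5 of H3K27me3 in WT. On chromosome 11 it was 19.5 H3K4me3 beside 26 H3K27me3 peaks, which made it the sole chromosome with more H3K27me3 than H3K4me3 peaks there.

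**Figure D3:**
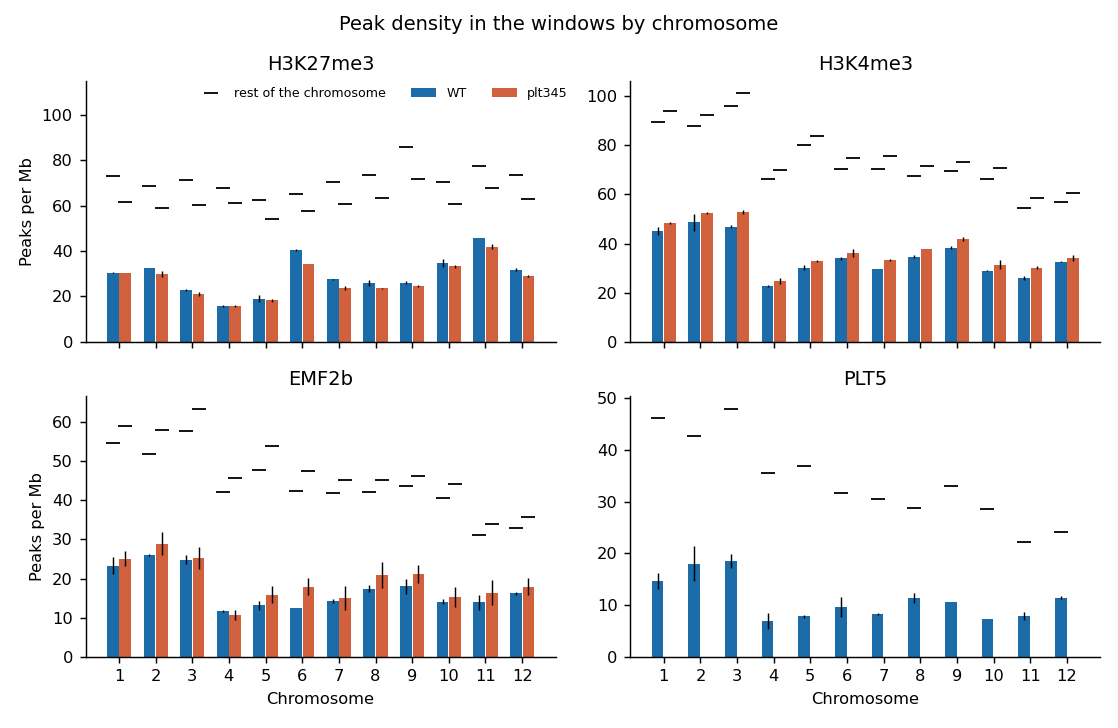
Peaks per Mb in the window of each chromosome (bars, mean with SD of 2 libraries; WT and plt345 side by side) and on the rest of the same chromosome (black dashes). Every bar stands below its dash, and the window of chromosome 4 is the lowest of the WT bars for each antibody.

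The histone mark peaks that remained in the windows were somewhat wider than those elsewhere. Median H3K27me3 widths were 1220 and 1127 bp in WT and 1254 and 1296 bp in plt345, against 1042 and 985 bp in WT and 1060 and 1058 bp in plt345 on the rest. They were wider in 4 of 4 libraries, by 0.24 ± 0.04 on the log2 scale (SD, n = 4, exact sign-flip p = 0.125), and on 8 of 12 chromosomes in every library. H3K4me3 peaks were wider by 0.12 ± 0.03 (SD, n = 4, exact sign-flip p = 0.125), on 10 of 12 chromosomes in every library. By mean in place of median width the 2 differences were 0.12 and 0.05, and among peaks above the percentile 25 of -log10 q that of H3K4me3 was 0.04. Window peaks of EMF2b and PLT5 had widths of 0.964 and 0.951 times those of the rest, and only 3 and 6 chromosomes were narrower in every library.

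Strength was compared as the rank of a peak's -log10 q within its own list, since the authors' values depend on the depth of each library. The difference was largest for H3K4me3. The median percentile of its window peaks exceeded that of the rest by 16.9 ± 0.79 points (SD, n = 4, exact sign-flip p = 0.125), and on 12 of 12 chromosomes in every library. Peaks past the percentile 90 of their H3K4me3 list made up 20.9 ± 0.038% of window peaks in WT and 22.4 ± 0.66% in plt345, against 9.03 and 8.86% of peaks on the rest.

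H3K27me3 window peaks ranked higher by 6.15 ± 2.1 points, EMF2b by 3.87 ± 2.0 (SD, n = 4 each, exact sign-flip p = 0.125) and PLT5 by 5.10 ± 1.1 (SD, n = 2, exact sign-flip p = 0.5). These held in every library on 10, 6 and 5 chromosomes, and PLT5 window peaks ranked lower in every library on 3. Ranked by the authors' fold enrichment in place of q, the differences were 16.4, 28.3, 19.3 and 24.8 points for H3K27me3, H3K4me3, EMF2b and PLT5, and against the neighbouring 2.5 to 5 Mb they were 2.04, 9.07, 1.69 and 2.25 points, with EMF2b no longer higher in every library (exact sign-flip p = 0.375). Within 0.5 Mb of the given positions the median H3K4me3 peak ranked at the percentile 73.1 and 70.7 in WT and 76.6 and 78.1 in plt345. H3K4me3 peaks nearest the given positions were high in their lists in all 4 libraries.

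Overlap between the marks was counted as at least 150 bp of a peak under bases covered in both libraries of the other antibody in the same genotype. The window peaks of EMF2b were less often with H3K27me3 and more often with H3K4me3 than those elsewhere. In WT 30.5 ± 0.40% of them carried H3K27me3 against 37.2 ± 0.17% on the rest, and in plt345 20.6 ± 0.61% against 26.7 ± 0.40% (SD, n = 2). For H3K4me3 the shares in WT were 46.0 ± 2.3% against 42.4 ± 0.64%, and in plt345 44.3 ± 1.6% against 39.99 ± 1.3%. Each difference ran the same way in 4 of 4 libraries (exact sign-flip p = 0.125). With windows of 5 Mb to each side the difference with H3K27me3 went from -0.33 to -0.03 on the log2 scale (exact sign-flip p = 0.25). That with H3K4me3 was 0.13 and ran from 0.08 with these wider windows to 0.29 with windows of 1.5 Mb.

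PLT5 showed the same order: 36.6 ± 0.12% of its window peaks were with H3K27me3 against 41.3 ± 1.1% on the rest, and 65.6 ± 1.9% with H3K4me3 against 56.9 ± 0.53% (SD, n = 2, exact sign-flip p = 0.5 each). Its share with EMF2b was 67.4 and 71.6% in the windows against 63.3 and 68.8% on the rest, so the libraries overlapped between zones while each was higher in the windows, by 0.07 ± 0.02 on the log2 scale (SD, n = 2, exact sign-flip p = 0.5). With windows of 5 Mb to each side the difference of PLT5 with H3K27me3 turned to +0.06 on the log2 scale. Against the flanks alone (2.5 to 5 Mb from the given positions), the difference with H3K4me3 went from 0.21 to 0.03 and that with EMF2b to 0.02.

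The marks themselves met somewhat less often in the windows, again without scaling to the bases available. Of H3K27me3 peaks, 16.998 ± 0.018% in WT and 16.2 ± 0.58% in plt345 overlapped H3K4me3, against 19.9 and 17.7% on the rest (SD, n = 2). Of H3K4me3 peaks, 14.4 ± 0.36% in WT and 11.9 ± 0.026% in plt345 overlapped H3K27me3, against 18.2 and 13.3%. All 4 libraries of each mark were lower (exact sign-flip p = 0.125), but the first difference turned to +0.01 on the log2 scale with windows of 1.5 Mb to each side and to +0.08 against the flanks alone, and the second to +0.07 with windows of 5 Mb.

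**Figure D4:**
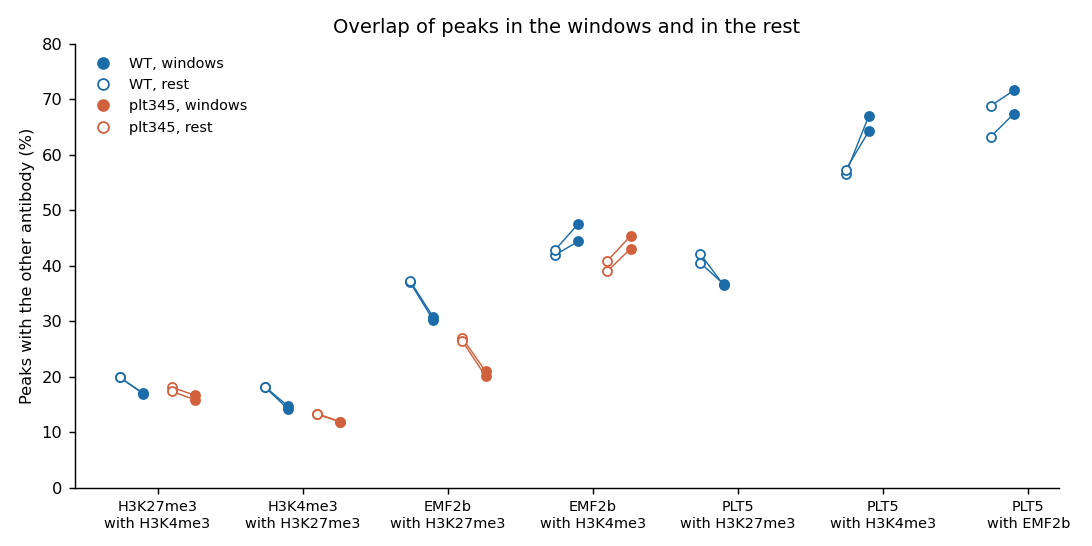
Share of peaks (y axis, %) that overlap peaks of another antibody (x axis), in the rest (open) and in the windows (filled), with a line joining the 2 values of each library. The lines of EMF2b with H3K27me3 slope down in all 4 libraries, and those of EMF2b and PLT5 with H3K4me3 slope up in each.

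Counted in bases, 158.7 kb of the windows lay under both histone marks in WT and 125.3 kb in plt345. This was 2.64 kb per Mb in WT against 6.43 on the rest, and 7.39% of the H3K27me3 bases of the windows against 8.04%. As regions, 274 of 1523 H3K27me3 regions of the windows were bivalent in WT (17.99%, 95% Wilson interval 16.1 to 20), against 21.9% on the rest (21.4 to 22.5). These intervals cover counting error only, and neighbouring regions are not independent.

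Between the genotypes, H3K27me3 coverage differed less around the centromeres than on the rest of the chromosomes, with plt345 below WT in both. Peaks of H3K27me3 took up 2.46 ± 0.11 Mb of the windows in WT (SD, n = 2) and 2.36 ± 0.025 Mb in plt345, 0.957 times as much, and on the rest plt345 had 0.869 times as much. The values of the genotypes did not overlap in the windows, but the gap was small beside the spread within WT. They were 2.542 and 2.387 Mb in WT and 2.341 and 2.376 Mb in plt345. The difference in log2 change between windows and rest was 0.14 for covered length and 0.10 for peak density. Both plt345 libraries exceeded both WT libraries in the window-to-rest ratio (exact permutation p = 0.333, the smallest possible). Against the flanks alone these differences were 0.07 for covered length and 0.06 for peak density. The change of -0.06 within the windows alone turned to 0.02 on the log2 scale when all H3K27me3 lists were cut to an equal number of peaks.

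H3K4me3 took up 2.05 ± 0.028 Mb of the windows in WT (SD, n = 2) and 2.14 ± 0.0030 Mb in plt345, 1.04 times as much, while the rest had 0.986 times as much. The difference in log2 change was 0.08 for covered length and 0.05 for peak density (exact permutation p = 0.333 each). Against the flanks alone these were 0.02 and 0.000345 (exact permutation p for density = 1). The length under EMF2b peaks was 0.636 ± 0.044 Mb for WT libraries (SD, n = 2) and 0.573 ± 0.095 Mb for those of plt345, and the genotypes overlapped. Without the first plt345 library its log2 change in the windows went from -0.16 to 0.01.

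Regions were then called lost when both WT libraries and neither plt345 library had them, and gained in the reverse case, with at least 150 bp of peak needed for presence. For H3K27me3, 149 of 1523 window regions were lost, or 9.78% (95% Wilson interval 8.39 to 11.4), where 11.7% were lost over all chromosomes. In the other direction 103 of 1409 were gained, or 7.31% (6.06 to 8.79), where 4.38% were gained over all chromosomes. Wilson intervals here and below cover counting error only. They take regions as independent, which they are not, and leave out the spread between libraries. The share gained was higher in the window than on the rest of the same chromosome for 11 of 12 chromosomes, and the share lost was higher for 2.

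The H3K27me3 result depended in part on which libraries were compared. With replicate 1 of each genotype alone, 10.6% of window regions were gained against 10.2% on the rest, and with replicate 2 alone 14.9% against 10.8%. The shares lost were 19.3% against 23.3% and 18.7% against 23.5%. With equal numbers of peaks in each list, 10.4% of window regions were gained against 7.34% on the rest. The gained share was lower with distance from the given position, from 7.84% within 1 Mb to 3.86% beyond 10 Mb, while the lost share ran from 7.72% to 12.2%.

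Gained H3K27me3 regions of the windows were longer than lost ones, with a median of 1008 bp in plt345 against 561 bp in WT. The order was the same on the rest, with 733 against 517.5 bp. In sum the lost regions of the windows amounted to 102.9 kb and the gained ones to 109.0 kb, whereas on the rest it was 1435 kb lost and 578.7 kb gained. Few gained regions held EMF2b or PLT5: 6 of 103 had EMF2b in plt345 and 4 had PLT5 in WT, or 5.83 and 3.88%, where 17.1 and 12.03% of kept window regions did. The order was the same on the rest, with 15.5 and 7.45% of gained regions and 25.1 and 19.8% of kept ones. Of the 149 lost regions 41 had EMF2b in WT (27.5%) and 29 had PLT5 (19.5%), near the 24.8 and 18.7% of those lost on the rest. In kept regions these WT shares were lower in the windows, at 16.9 and 12.03%, and were 24.5 and 19.8% on the rest. Among the 1239 window regions kept in all 4 libraries, 410 were shorter in both plt345 libraries than in both WT ones (33.1%), where 39.9% were over all chromosomes, and 234 were longer (18.9%), where 14.3% were.

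For H3K4me3, 75 of 1922 window regions were lost (3.90%, 95% Wilson interval 3.12 to 4.86), where 4.75% were lost over all chromosomes. By contrast 208 of 2092 were gained (9.94%, 8.73 to 11.3), where 8.27% were gained over all chromosomes, and the gained share was higher in the window on 9 of 12 chromosomes. Within 1 Mb of the given positions it was 7.24%, and between 1 and 2.5 Mb 11.4%, and just outside the windows, up to 5 Mb, 11.3%. Of 1785 window regions kept in all 4 libraries, 588 were shorter in both plt345 libraries (32.9%) and 385 longer (21.6%), where 34.9% and 19.7% were over all chromosomes. Of the 208 gained regions, 41 had H3K27me3 in plt345 (19.7%) and 17 had EMF2b (8.17%), where 22.1 and 10.8% of the regions gained on the rest did. Among kept window regions these shares were 11.9 and 25.6%.

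EMF2b had the highest shares of lost and gained regions of the 3 antibodies. In the windows 162 of 843 regions were lost (19.2%, 95% Wilson interval 16.7 to 22.0), where 19% were lost over all chromosomes, and 199 of 901 were gained (22.1%, 19.5 to 24.9), where 22.3% were. Both shares lay near those of all chromosomes. Of 589 regions kept in all 4 libraries, 289 were shorter in both plt345 libraries (49.1%) and 82 longer (13.9%), where 45.2% and 15.4% were over all chromosomes.

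**Figure D5:**
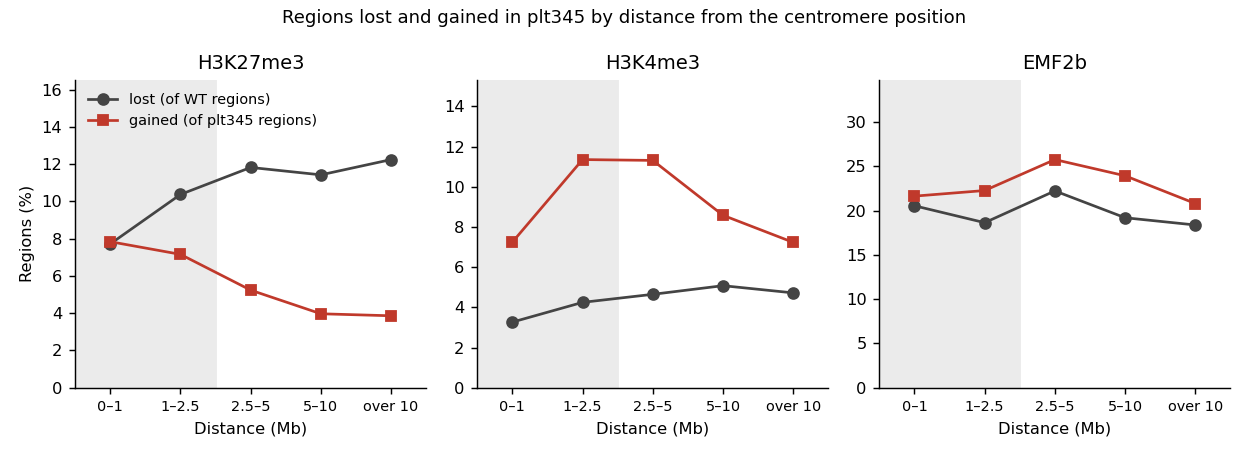
Share of WT regions lost (dark) and of plt345 regions gained (red) in plt345 (y axis, %) by distance from the given position (x axis, Mb), with the windows shaded. For H3K27me3 the lines meet within 1 Mb at 7.72 and 7.84% and part with distance; points are counts over 2 libraries per genotype and have no replicate error.

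The bivalent regions of the windows were followed into plt345. Of the 274, 184 stayed bivalent in plt345 (67.2%, 95% Wilson interval 61.4 to 72.4), against 61.3% on the rest. Of all 274, 25 lost H3K27me3 (9.12%) and 27 lost H3K4me3 (9.85%), near the 10.8 and 11.0% on the rest. These groups do not add up to 274, as a mark seen in a single plt345 library counts as neither kept nor lost. PLT5 was present at 139 of the 274 (50.7%, 44.8 to 56.6), against 59.5% on the rest (58.0 to 61.0). Of 1192 window regions with H3K27me3 alone in WT, 40 gained H3K4me3 (3.36%, 2.47 to 4.54), against 2.76% on the rest.

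PLT5 had 504 of its 8773 sites found in both libraries within the windows. Of these, 228 had H3K4me3 alone (45.2%, 95% Wilson interval 40.9 to 49.6), against 35.8% on the rest. A further 134 had both marks (26.6%), 69 had H3K27me3 alone (13.7%) and 73 had neither (14.5%). On the rest these shares were 29.8, 16.6 and 17.8%. EMF2b was found at 398 (79.0%, 75.2 to 82.3), against 76.6% on the rest. These are shares of sites found in both libraries. They are not the same measure as the shares of peaks above, which were counted per library with at least 150 bp of overlap. In plt345, where PLT5 peaks are not analysed here, 407 of the 504 places had EMF2b (80.8%) and 153 had H3K27me3 (30.4%), after 203 in WT (40.3%). On the rest the H3K27me3 shares were 36.1% in plt345 and 46.4% in WT, and the EMF2b share in plt345 was 74.4%.

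The windows held 5.74% of all PLT5 sites, and 18 of the 100, 33 of the 300 and 84 of the 1000 strongest by mean -log10 q. These 18 were examined after their values were seen. A stretch of 77.2 kb on chromosome 12, from 13342225 to 13419421, held 11 of them, and the other 7, near the 5.74% of all sites, lay on chromosomes 1, 2, 8 and 9. All 7, and 2 of the 11 on chromosome 12, had a peak in all 12 libraries of the other 3 antibodies. The presence of a peak with every antibody at these places stands beside their strength, and its part in that strength was not tested because the IgG libraries are not analysed here.

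The stretch on chromosome 12 had fewer histone mark peaks in plt345. All 11 sites had H3K27me3 in both WT libraries, 5 kept it in both plt345 libraries and 6 had it in neither. Among all PLT5 sites with H3K27me3 in both WT libraries, 498 of 4036 had it in neither plt345 library, and among those of the windows 35 of 203. H3K4me3 was at 5 of the 11 in both WT libraries and at 2 in both plt345 libraries. Among all 8773 PLT5 sites it was at 5789 in WT and 5189 in plt345, and among the 504 of the windows at 362 and 329. EMF2b was at all 11 in both genotypes.

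Single regions are given in the coordinates of the deposited lists, whose genome build no source used here gives, and no gene was assigned to them. The strongest peaks of the windows in WT were at the same 3 places for H3K27me3, EMF2b and PLT5. All 14 lists had a peak at each place. The first was on chromosome 12, where H3K27me3 covered 13349142 to 13349888, 1.45 Mb from the given position. Its -log10 q for H3K27me3, the authors' value in each list, was 52.2 and 56.5 in WT and 21.9 and 22.7 in plt345. For EMF2b it was 154.4 and 159.4 in WT and 128.6 and 129.7 in plt345, and for PLT5 206.0 and 190.0. No test was made on these values, since each list scales them by its own depth.

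The region nearest to a given position among them was on chromosome 8, from 12797744 to 12798207, at 0.102 Mb. The authors' fold enrichment of H3K27me3 there was 8.25 and 8.47 in WT and 3.77 and 4.44 in plt345. That of EMF2b was 26.2 and 25.1 in WT and 26.1 and 25.5 in plt345. H3K27me3 fold was lower in both plt345 lists and EMF2b fold overlapped between the genotypes at this place. The highest H3K27me3 fold was also lower over whole plt345 lists. Its mean was 9.97 in WT and 7.14 in plt345 in the windows, and 8.87 and 6.79 on the rest. The median fold of H3K27me3 window peaks was 2.35 in WT and 2.39 in plt345.

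Chromosome 9 held the longest bivalent regions with PLT5, all 3 of them between 4692865 and 4732318. The bases under both marks, summed within a region, were most in that from 4705549 to 4711292, with 4116 bp in WT and 3383 bp in plt345. In the other regions these sums were 3259 and 2020 bp in WT and 2487 and 1790 bp in plt345. All 14 lists had a peak at each of the 3, and this cluster also supplied the longest EMF2b and PLT5 peaks of all windows. Whether peaks shared by all lists are specific to the antibodies was not tested, as the IgG libraries are not analysed here.

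The longest H3K27me3 region of the windows, on chromosome 8 from 11373266 to 11379588, had no H3K4me3 or PLT5 peak in any library, and covered 6282 and 6323 bp in WT and 6206 and 5101 bp in plt345. The longest region that plt345 lost was on chromosome 11, from 14008604 to 14010854. It measured 2251 and 2109 bp in WT, and H3K4me3, absent there from both WT libraries, was present in both plt345 libraries. The longest lost on chromosomes 5 and 12, at 11617567 to 11619683 and 10927306 to 10929326, showed no H3K4me3 peak in either genotype.

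The longest H3K27me3 regions gained were on chromosome 3 from 21459013 to 21462620, with 2581 and 3405 bp in plt345, on chromosome 6 from 16580252 to 16583191, with 2730 and 2940 bp, and on chromosome 9 from 732535 to 735747, with 3213 and 2023 bp. None of the 3 had an EMF2b or PLT5 peak. H3K4me3 was present at the first in all 4 libraries and at the others in none.

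Among H3K4me3 regions the longest gained was on chromosome 11, from 14185614 to 14188131, with 2508 and 2023 bp in plt345. The next, on chromosome 12 from 12963301 to 12964950 and from 13670424 to 13671956, also had EMF2b and H3K27me3 in both plt345 libraries and in no WT library, so 3 antibodies appeared there together. By length covered, the longest H3K4me3 region of the windows in WT was on chromosome 9 from 4705594 to 4710382, with 3853 and 4614 bp in WT and 3336 and 3021 bp in plt345. The next was on chromosome 1 from 14446882 to 14450086. It held the widest single H3K4me3 window peak of both WT libraries, 3144 and 2923 bp, and covered 878 and 1043 bp in plt345.

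Regions with a peak in all 14 lists made up 78 of 4437 merged regions in the windows (1.76%) and 1453 of 50298 on the rest (2.89%). They took up 14.1 and 15.2% of PLT5 window peaks, 7.40 to 9.30% of EMF2b ones and 3.75 to 5.21% of those of the histone marks. Leaving out all peaks at such regions kept the sign of each difference over the whole windows in density, length, width, strength, overlap and between genotypes. The difference of H3K4me3 with H3K27me3 went from -0.25 to -0.13 on the log2 scale (exact sign-flip p = 0.375) and that of H3K27me3 with H3K4me3 from -0.18 to -0.11. The innermost bins, single chromosomes, bivalent regions and strongest PLT5 sites were not recomputed without them.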

How the data were processed

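Peak lists of 14 CUT&Tag libraries were used. The submitters' processing notes name MACS2 2.2.7.1, Bowtie2 2.4.4, Trim Galore 0.6.6 and deepTools 3.5.0, without their roles. Genome build, control library and duplicate handling: not given in the sources used here. One list per library was deposited, so peaks were not called on pooled samples. Peak names in the deposited lists record a broad cutoff of 0.1 (H3K27me3) or a p cutoff of 1e-05. Each deposited list gives a fold enrichment, a ratio to the background the authors' peak caller modelled, and a −log10 p and −log10 q. The deposited score equals the −log10 q (broad lists) or the −log10 p (narrow lists) multiplied by 10. The authors' other columns hold each peak's start and end in bp, counted here from 1.

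Peaks on unplaced sequences were left out, and a chromosome was taken to end at its last peak. Density, covered length, median width and median percentile of −log10 q were computed per library in the windows and in the rest, with Python 3.11.15, numpy 2.4.6, pandas 2.3.3 and scipy 1.17.1. Window and rest were compared by an exact sign-flip permutation test over libraries, and genotypes by an exact permutation test of 2 against 2. There were 23 tests of window against rest and 12 between genotypes. P-values are unadjusted except for the 12 comparisons between antibodies, added after the values were seen. For lost and gained regions, the peaks of an antibody's 4 libraries were merged. The scripts were tested on simulated data. The regions named are the 3 strongest and longest in WT, and the 3 longest lost, gained and bivalent, of each antibody. The windows, lists and rules were chosen with earlier results of these data known.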

Additional observations from a re-analysis of the deposited data

How the results depend on the processing

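Alternatives were other window half-widths (1.5 and 5 Mb), the flanks alone as the rest (to 5 Mb), the rest without chromosome ends, chromosomes left out, peaks above the 25th percentile of −log10 q, equal numbers of peaks, other rules for overlap and presence (1 and 500 bp), mean width, rank by fold, and each library left out. Leaving out regions with a peak in all 14 lists was added after the data were seen. Of 324 alternative values for window against rest, 320 kept their direction, as did 156 of 162 between genotypes. Of 84 counts, 54 stayed within 1.5 times the reported one.

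The directions that turned were as follows, as log2 values. The overlap of H3K27me3 with H3K4me3 was 0.00711 at 1.5 Mb and 0.0816 against the flanks, that of H3K4me3 with H3K27me3 0.0694 at 5 Mb, and that of PLT5 with H3K27me3 0.0579 at 5 Mb. The change of H3K27me3 length in the windows was 0.0172 with equal numbers of peaks, and its width difference between genotypes -0.00569 against the flanks. The EMF2b width difference was 0.0276 at 5 Mb, 0.0402 above the 25th percentile and between -0.0300 and 0.0166 with 1 library left out. The EMF2b length change ran from -0.328 to 0.0122 with 1 library left out, turning without the first plt345 library. The causes were not tested.

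Counts of lost and gained regions moved with the size of the windows by construction. At 1.5 Mb they were 60 and 43 for H3K27me3, 40 and 105 for H3K4me3, and 85 and 104 for EMF2b, and at 5 Mb 491 and 234, 183 and 489, and 421 and 516. H3K27me3 lost 83 with equal numbers of peaks. H3K4me3 lost 43 above the 25th percentile and 49 with 500 bp of presence, where EMF2b gained 54. With 1 library left out, which leaves fewer libraries to meet the rule, lost and gained counts ran from 212 to 251 and 118 to 166 for H3K27me3, 101 to 123 and 242 to 300 for H3K4me3, and 181 to 264 and 254 to 405 for EMF2b. EMF2b lost 264 without the second WT library and gained 405 without the first plt345 library.

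The labels do not say whether replicates of the same number shared more than that number. The differences in covered length between replicates 1 and 2 correlated between the genotypes at -0.00425 for H3K27me3, 0.000768 for H3K4me3 and -0.0467 for EMF2b. Such a correlation over regions would not show an effect common to a whole library. With the replicate number as a block, the mean of the lost and gained counts within a pair was 318 and 198.5 for H3K27me3, 162 and 347 for H3K4me3 and 309.5 and 424.5 for EMF2b, and no tested difference changed its direction. The EMF2b pairs differed: pair 1 lost 35.7% and gained 33.9% of window regions, and pair 2 lost 24.8% and gained 40.6%. Depth is not known for these lists, which limits every comparison of peak numbers between libraries.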
